A study of Mus musculus with 13 samples.

Results

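A set of 10 genes of Wnt signalling were followed through the liver and the kidney of adult mice: the ligands Wnt2b, Wnt4, Wnt5a, Wnt7b, Wnt9b and Wnt11, the potentiator Rspo3, the R-spondin receptor Lgr5, and the regulators Axin2 and Sfrp1. They were chosen by gene symbol, and all of them were found among the 22298 genes of the expression table. The mice were CD-1 (ICR) offspring, 8 weeks old, born after in vitro fertilisation of oocytes that were either fresh or had been vitrified by the Cryotop method and thawed. Zygotes of both origins were cultured in KSOM medium and transferred to pseudopregnant females, so every animal, controls included, came from in vitro fertilisation and embryo transfer. RNA was taken from a piece of whole tissue, and the groups were liver of fresh origin (3 libraries), liver of vitrified origin (3), kidney of fresh origin (3) and kidney of vitrified origin (4). The sources used here give no litter, no dam and no sex, and no genetic alteration is named in the labels. Wnt4 was noticed in the kidney comparison of origins and the other genes were added around it, so every kidney difference between origins below is a description without a test.

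Wnt proteins are secreted, lipid-modified ligands that bind Frizzled receptors together with the co-receptors Lrp5 and Lrp6. In the canonical branch, binding stops the destruction of beta-catenin, which then activates target genes with TCF and LEF factors. R-spondins strengthen the signal through Lgr receptors by removing the ubiquitin ligases Rnf43 and Znrf3 from the membrane, whereas secreted Frizzled-related proteins such as Sfrp1 bind Wnt ligands, and Axin2 is a target gene whose product acts in the beta-catenin destruction complex. In the adult mouse liver, Wnt ligands and Rspo3 from cells around the central vein maintain the pericentral programme of hepatocytes. In the developing mouse kidney, Wnt9b from the ureteric bud acts ahead of Wnt4 in nephron formation, Wnt11 is made at the tips of the branching bud, and Wnt7b from the collecting duct is needed for the medulla.

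RefSeq promoter entries existed for 5 of the 10 genes (Wnt2b, Wnt4, Wnt9b, Wnt11 and Axin2), and 3 are shown, each as the 250 bases before the start of transcription on build GRCm38.p6, read 5′ to 3′ on the gene's own strand. Wnt4 is shown as the gene whose kidney levels did not overlap between origins, Axin2 as the feedback target, and Wnt11 as the promoter of the 5 genes that held a TCF/LEF word, printed in capitals.
Wnt4: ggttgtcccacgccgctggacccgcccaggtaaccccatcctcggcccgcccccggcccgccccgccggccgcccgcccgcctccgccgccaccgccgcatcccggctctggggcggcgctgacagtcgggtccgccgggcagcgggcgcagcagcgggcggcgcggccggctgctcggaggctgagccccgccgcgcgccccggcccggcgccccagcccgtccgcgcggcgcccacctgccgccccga
Axin2: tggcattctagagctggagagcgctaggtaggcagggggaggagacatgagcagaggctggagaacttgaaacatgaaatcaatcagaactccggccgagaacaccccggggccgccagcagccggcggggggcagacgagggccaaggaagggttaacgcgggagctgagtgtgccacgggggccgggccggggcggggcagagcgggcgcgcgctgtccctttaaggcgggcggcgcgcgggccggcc
Wnt11: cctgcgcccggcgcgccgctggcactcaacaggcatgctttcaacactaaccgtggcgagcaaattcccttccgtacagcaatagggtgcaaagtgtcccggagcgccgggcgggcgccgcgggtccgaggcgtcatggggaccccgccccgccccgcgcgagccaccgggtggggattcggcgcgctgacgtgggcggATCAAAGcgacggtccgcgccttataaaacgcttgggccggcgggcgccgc
The Wnt4 window lay at chr4:137277385-137277634 on the plus strand, the Axin2 window at chr11:108920099-108920348 on the plus strand, and the Wnt11 window at chr7:98834862-98835111 on the plus strand. The words searched on both strands were CTTTGAA, which 4.46% of all promoter windows held, then CTTTGTT with 5.03%, CTTTGAT with 3.21% and finally CTTTGTA with 3.20%; no position can match more than 1 of them. The Wnt11 window held 1 of them, CTTTGAT on the minus strand, 51 bases before the start, and the second Wnt11 start held none. Of all 32851 promoter windows of this length, 14.8% held at least 1 of the 4 words, so a word in 1 of 5 genes is near that share. G and C made up 85.2% of the Wnt4 window, which held 44 CpG dinucleotides, against medians of 52.4% and 6 over all windows.

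Library totals ran from 16073251 to 19964914 estimated counts. Levels are given as TMM-scaled CPM (TMM-CPM; CPM is the count relative to the library total), in which a scaling factor corrects each total for a few very abundant genes. No pair of libraries from the same organ was close enough to be one library deposited again. The markers went with the organ labels: the summed hepatocyte markers were at 93230 TMM-CPM or above in every liver and at 425.3 or below in every kidney, and the summed proximal tubule markers were at 5370 or above in every kidney and at 32.0 or below in every liver. Liver fresh replicate 3, kidney fresh replicate 3 and kidney vitrified replicate 4 had summed Y-linked levels of 1.13, 0.817 and 0.109 TMM-CPM, against 108.2 or more in the 10 others. Results below are therefore also given without these 3 libraries where they moved. Nothing in the labels says whether libraries with the same number share an animal, a litter or a day. Liver and kidney libraries of one origin and number may therefore come from one mouse, and fresh replicate 3 was near 0 in Y-linked counts in both organs. The main organ comparisons treated all libraries as independent, and an alternative with origin and number as a block is given below. The p-values measure only the spread between these samples.

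Sfrp1, Wnt7b, Wnt5a and Wnt11 were higher in the kidney, Rspo3, Lgr5 and Axin2 were higher in the liver, and Wnt4, Wnt2b and Wnt9b did not pass the test. These 7 of 10 calls (edgeR's quasi-likelihood test, adjusted p under 0.05 over all genes) stand beside 62.7% of all 14441 genes tested, so the share of genes called was near the background; the 4 calls in the kidney's favour stand beside 32.4% and the 3 in the liver's favour beside 30.3%. In whole tissue, fewer cells of a type and less RNA per cell cannot be told apart.

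**Figure D1:**
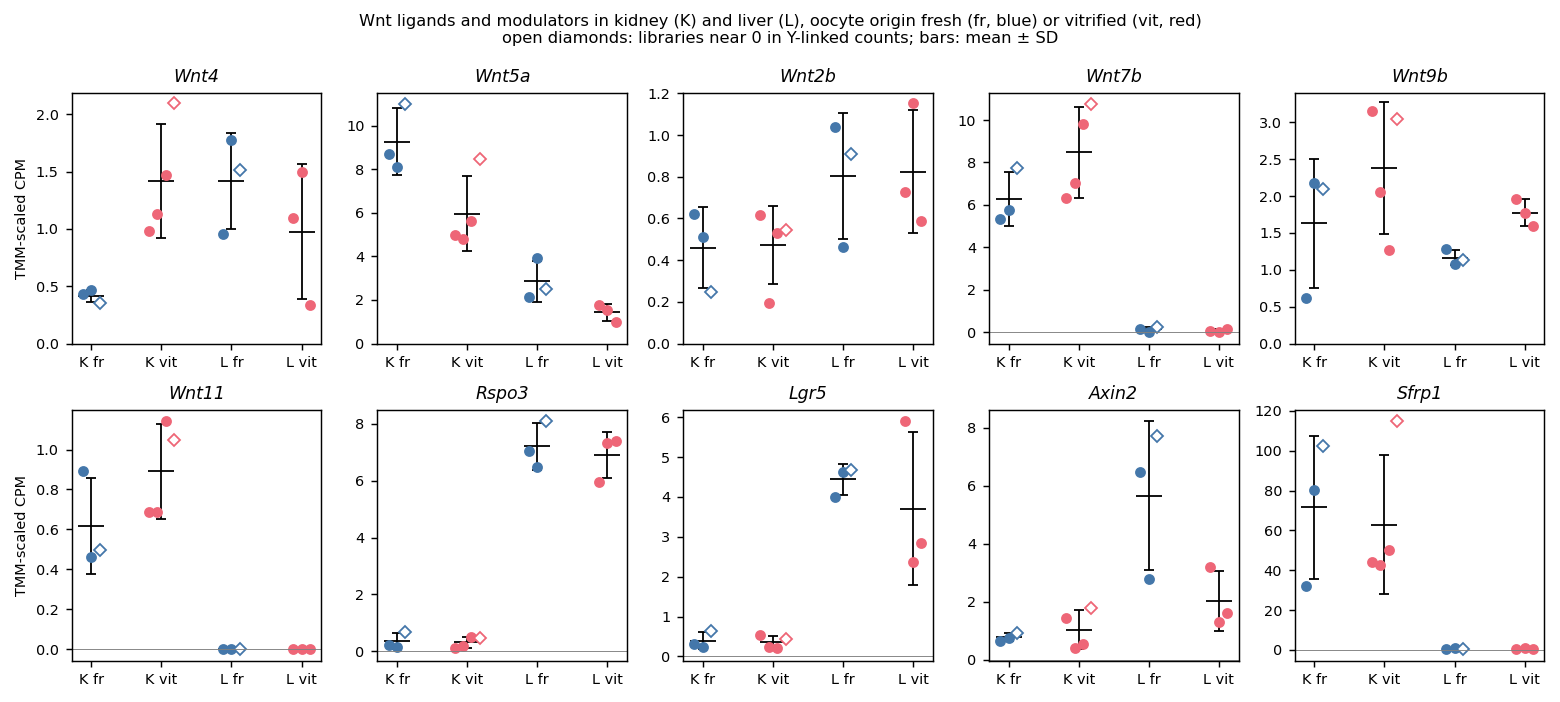
TMM-scaled CPM of the 10 genes in each of the 13 libraries (points; open diamonds for the libraries near 0 in Y-linked counts), on linear axes with their own scale per gene, with the mean ± SD of kidney (K) and liver (L) of fresh and vitrified origin. Sfrp1 lies between 32.1 and 114.8 in the kidney and at 0.816 or below in every liver, whereas Rspo3 lies between 5.97 and 8.09 in the liver.

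Sfrp1, the secreted Wnt antagonist, had the largest organ difference of the 9 genes counted in both organs. Its level in the 7 kidneys ran from 32.1 through a median of 50.0 to 114.8 TMM-CPM, and in the 6 livers from 0.240 through 0.517 to 0.816. Every kidney was far above every liver, at a log2 difference of 6.98 ± 0.45 (SE, adjusted p = 2.28e-08). The kidneys themselves spread widely, which is taken up with the origin comparison.

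Wnt7b, the collecting-duct ligand, ran from 5.33 through 7.01 to 10.8 TMM-CPM in the kidney. In the liver it was at 0 in 2 of 6 libraries and reached 0.227 at most, from 0 to 3 counts. The groups did not overlap, and the log2 difference was 6.12 ± 0.45 (SE, adjusted p = 5.17e-08). Wnt11 was counted in every kidney, with 10 to 29 counts and 0.464 to 1.14 TMM-CPM, and had no count in any liver. Against the limit that 0 counts allow (3 counts over the 6 livers together), it was at least 20.6-fold higher in the kidney (edgeR adjusted p = 3.54e-05). Intervals and limits of this kind cover counting error only.

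Wnt5a, a ligand best known for beta-catenin-independent signalling, was present in both organs. It ran from 4.81 through 8.13 to 11.0 TMM-CPM in the kidney and from 1.01 through 1.95 to 3.94 in the liver. The lowest kidney was above the highest liver, with a log2 difference of 1.87 ± 0.23 (SE, adjusted p = 1.03e-05).

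The liver's side of the set was made up of Rspo3, Lgr5 and Axin2. Rspo3, the R-spondin of central vein endothelium, was the steadiest of the 3: the livers ran from 5.97 through 7.19 to 8.09 TMM-CPM, and the kidneys from 0.109 through 0.233 to 0.675. The organs did not overlap, and the log2 difference was −4.36 ± 0.38 (SE, adjusted p = 2.99e-07). Lgr5, its receptor, ran from 2.38 through 4.31 to 5.90 TMM-CPM in the liver and from 0.204 through 0.311 to 0.639 in the kidney. Again no kidney reached the lowest liver, at −3.40 ± 0.35 (SE, adjusted p = 1.64e-06).

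Axin2 was less even. Its livers ran from 1.29 through 2.99 to 7.71 TMM-CPM and its kidneys from 0.392 through 0.743 to 1.77, so that the organs overlapped. The log2 difference was −1.90 ± 0.40 (SE, adjusted p = 0.000981). When only library totals set the scale, it was −0.88 with an adjusted p of 0.0770, and on the authors' FPKM the call was lost as well (adjusted p = 0.0654 with limma on log2(FPKM + 1)).

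Wnt4, Wnt2b and Wnt9b lay at similar low levels in both organs. Wnt4 ran from 0.355 through 0.978 to 2.10 TMM-CPM in the kidney and from 0.338 through 1.29 to 1.78 in the liver, and Wnt2b from 0.196 through 0.530 to 0.623 in the kidney and from 0.463 through 0.818 to 1.16 in the liver. The organs overlapped for both. The log2 differences were −0.62 ± 0.36 for Wnt4 (SE, adjusted p = 0.148) and −0.80 ± 0.38 for Wnt2b (adjusted p = 0.0837), and with library totals alone their signs turned, to 0.35 and 0.17. Without liver vitrified replicate 3, which had 4 Wnt4 counts, Wnt4 was called lower in the kidney, at −0.81 (adjusted p = 0.0363). Wnt9b, which central vein endothelium also makes, ran from 0.623 through 2.10 to 3.15 TMM-CPM in the kidney and from 1.08 through 1.44 to 1.97 in the liver. Its difference of 0.45 ± 0.33 (SE, adjusted p = 0.249) became 1.46 with library totals alone (adjusted p = 0.00254).

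**Figure D2:**
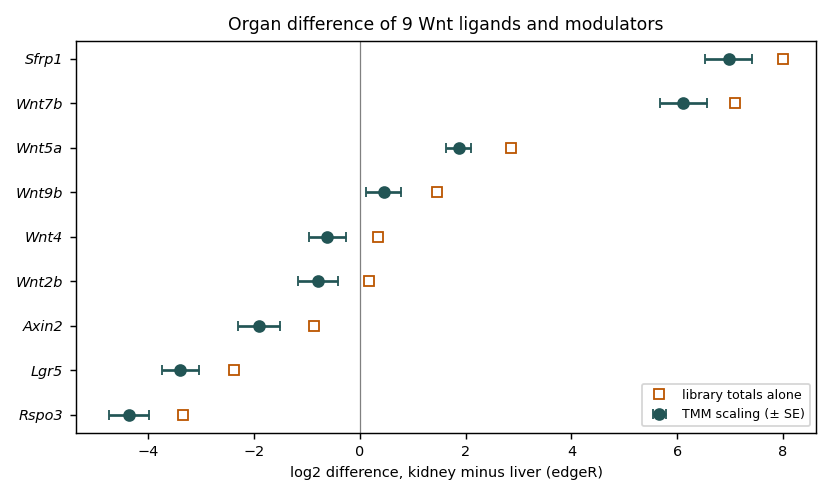
Log2 difference between kidney and liver for 9 genes (Wnt11, with no liver count, is left out). Filled circles with bars are edgeR estimates with TMM scaling and their SE, and open squares are the estimates with library totals alone. The squares lie to the right of the circles by about the shift of all genes, and only Wnt4 and Wnt2b cross 0.

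The choice of scale moved many organ calls. With library totals alone the median log2 difference of all genes was 0.99, against −0.004 with TMM, and the calls split into 10065 higher in the kidney and 1522 higher in the liver, against 4681 and 4370 with TMM. The 9 genes counted in both organs kept their order under both scalings. Of the 7 calls, 6 were also made with library totals alone, the exception being Axin2, and Wnt9b was added.

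Levels of different genes can be compared only per unit of transcript length, for which the authors' FPKM values were used. In the kidney, Sfrp1 was highest at 21.7 ± 12.5 FPKM (SD, n = 7), followed by Wnt7b at 3.27 ± 1.10 and Wnt5a at 2.22 ± 0.84. Below them came Wnt11 at 0.736, Wnt9b at 0.639, Axin2 at 0.421, Wnt4 at 0.327, Wnt2b at 0.193, Rspo3 at 0.183 and Lgr5 at 0.113 FPKM. The ranges separated only Sfrp1 from Wnt7b and Wnt5a from Wnt11, and every other neighbour in this order overlapped. The place of Wnt11 rests on its FPKM conversion. It had 137 kidney counts against 366 for Wnt9b, but 0.806 to 1.118 FPKM per TMM-CPM against 0.277 to 0.345. In the liver, Rspo3 was highest at 1.58 ± 0.19 FPKM (SD, n = 6), then Axin2 at 0.828 ± 0.561, Lgr5 at 0.600 ± 0.198 and Wnt5a at 0.313 ± 0.137. Wnt9b at 0.225, Wnt4 at 0.202, Wnt2b at 0.170, Sfrp1 at 0.0833, Wnt7b at 0.0233 and Wnt11 at 0 FPKM followed. In the liver every neighbour in the order overlapped the next.

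Between origins, the kidney Wnt4 values stood apart. They were 0.428, 0.464 and 0.355 TMM-CPM in the fresh group and 0.978, 1.13, 1.47 and 2.10 in the vitrified group. All 4 vitrified libraries lay above all 3 fresh ones, and the log2 difference was 1.76 ± 0.42 (SE). The values rest on few reads: 11, 10 and 10 counts against 27, 23, 36 and 58. The exact Poisson 95% interval of the highest fresh library (0.223 to 0.854 TMM-CPM) overlapped that of the lowest vitrified library (0.645 to 1.42). On log2(FPKM + 1) the difference was 0.36, a scale that compresses low genes. Without the libraries near 0 in Y-linked counts it was 1.41, and leaving out each kidney library in turn gave 1.51 to 1.90. Of its 50-base words, 3.85% also occur in the gene model Gm42531, so a small part of its reads could belong to another locus.

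**Figure D3:**
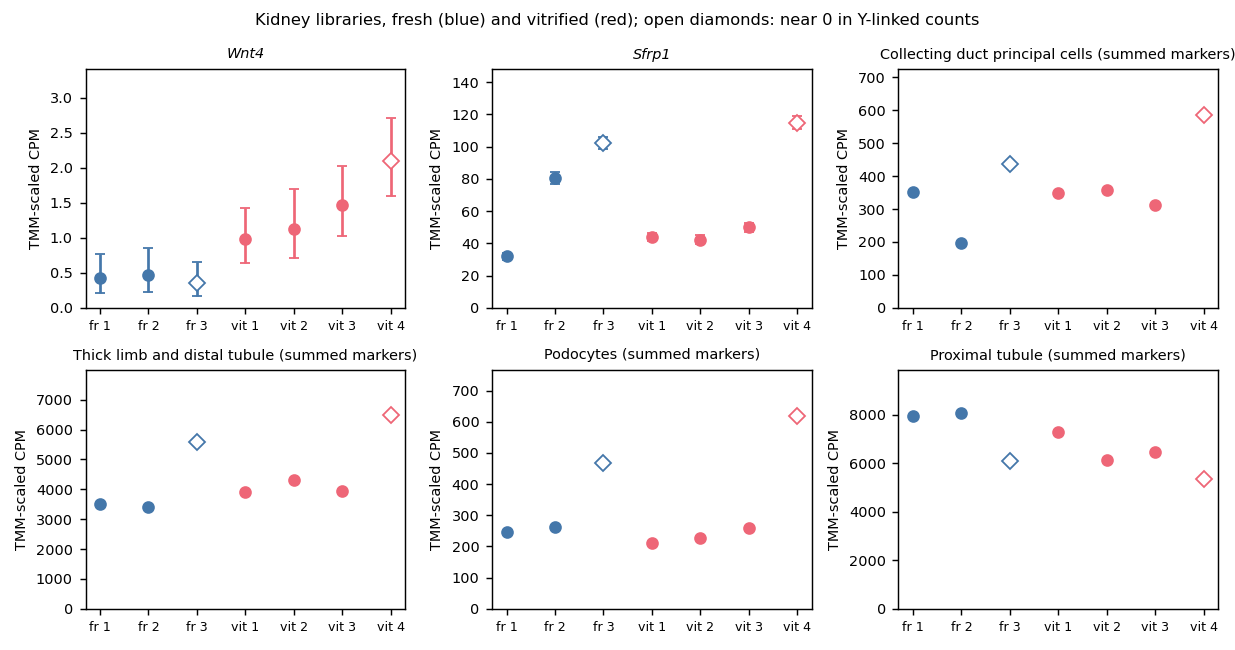
Wnt4, Sfrp1 and the summed markers of 4 kidney cell types in the 7 kidney libraries, in TMM-scaled CPM on axes that start at 0; fresh origin in blue, vitrified in red, and open diamonds for the libraries near 0 in Y-linked counts. Bars on the gene panels are exact Poisson 95% intervals. Sfrp1 and the markers of thick limb, podocytes and collecting duct are highest in the 2 libraries with open diamonds, proximal tubule markers are lowest there, and Wnt4 is highest in the vitrified one of them.

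Kidney cell markers did not follow Wnt4 in every library, and their part in the result was not tested. Fresh replicate 3 had the lowest Wnt4 level (0.355 TMM-CPM), but the highest summed thick limb, collecting duct and podocyte markers of the fresh kidneys. Vitrified replicate 4 was highest of all kidneys in Wnt4 (2.10) and in each of these sums. Summed thick limb and distal tubule markers were 3496, 3403 and 5594 TMM-CPM in the fresh kidneys and 3915, 4305, 3933 and 6497 in the vitrified ones; none of the 6 markers was at 0. Summed collecting duct principal cell markers were 351.8, 198.1 and 436.5 in fresh and 347.7, 357.4, 311.9 and 584.6 in vitrified kidneys, with 8 of 8 markers detected in both groups. Summed renal medulla and papilla markers, which share Aqp2 and Aqp4 with that list, were 468.3, 252.1 and 494.8 in fresh kidneys. In vitrified kidneys they were 408.1, 449.8, 607.6 and 621.1. Fibroblast markers ran from 131.2 to 198.0 in fresh kidneys and from 74.9 to 138.4 in vitrified ones. Summed podocyte markers were 247.1 to 467.8 in fresh and 210.3 to 617.5 in vitrified kidneys, and proximal tubule markers 6100 to 8062 and 5370 to 7306. Each of these lists overlapped between origins.

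Of the other ligands in the kidney, Wnt5a read 8.68, 8.13 and 11.0 TMM-CPM in fresh and 4.96, 4.81, 5.62 and 8.47 in vitrified kidneys, at a log2 difference of −0.64 ± 0.25 (SE). Its groups overlapped only through vitrified replicate 4, without which the difference was −0.85. Wnt7b read 5.33, 5.76 and 7.74 in fresh and 6.30, 7.01, 9.82 and 10.8 in vitrified kidneys, an overlap at 6.30 to 7.74, at 0.43 ± 0.26. Wnt9b (0.55 ± 0.50), Wnt11 (0.52 ± 0.43) and Wnt2b (0.05 ± 0.53) overlapped between origins, and Wnt2b turned to −0.32 without the libraries near 0 in Y-linked counts.

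Sfrp1 in the kidney read 32.1, 80.4 and 102.5 TMM-CPM in fresh and 44.2, 42.4, 50.0 and 114.8 in vitrified libraries. Its highest values were in fresh replicate 3 and vitrified replicate 4, the libraries near 0 in Y-linked counts, and the log2 difference was −0.19 ± 0.47 (SE). Rspo3 (−0.16 ± 0.71), Lgr5 (−0.14 ± 0.56) and Axin2 (0.42 ± 0.56) had SEs larger than their differences. Their directions were not stable. Without fresh replicate 3 the differences were 0.73 for Rspo3, 0.39 for Lgr5 and 0.15 for Sfrp1, and that of Axin2 was −0.20 on log2(FPKM + 0.1) and −0.15 with the replicate number as a block.

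Over the table as a whole, edgeR called 0 of 14018 genes (0.0%) between the kidney origins, with 288 at an unadjusted p under 0.05; DESeq2 called 11 and limma on log2(FPKM + 1) called 0. Wnt4 was the only one of the 10 whose kidney groups did not overlap. Across all genes tested, 1.63% were higher in every vitrified kidney, 1.98% lower in every one, and 3.61% one or the other. Nothing is read from this count, because the kidney contrast chose the gene.

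The 6 genes whose kidney profile was most like that of Wnt4 over the 7 libraries, among 12829 genes with a mean of at least 1 CPM there (gene models named Gm or Rik left out), were Smap2 (Pearson r = 0.983), Cd300a (0.967), Tent5c (0.946), Pmm2 (0.935), Bglap3 (0.932) and Cyb5r1 (0.923). The likeness was computed on log2(CPM + 1) with library totals, and the points share library depth and origin, so these are descriptions.

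In the liver, where the origin comparison did not choose the genes, none of the 7 genes with enough counts was called, and edgeR called 0 of 12335 genes overall (0.0%), with 390 at an unadjusted p under 0.05; DESeq2 called 9 and limma on log2(FPKM + 1) called 0. Wnt7b, Wnt11 and Sfrp1 were too low to test. Wnt4, the gene that stood apart in the kidney, read 0.959, 1.78 and 1.51 TMM-CPM in fresh and 1.09, 1.50 and 0.338 in vitrified livers. The groups overlapped, and the log2 difference was −0.50 ± 0.56 (SE, adjusted p = 0.990).

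Axin2 had the largest liver difference of the tested genes. It read 6.47, 2.78 and 7.71 TMM-CPM in fresh and 3.20, 1.29 and 1.60 in vitrified livers. Fresh replicate 2 lay within the vitrified range, and the log2 difference of −1.45 ± 0.50 (SE) had an unadjusted p of 0.0196 and an adjusted p of 0.990 in edgeR. Axin2's FPKM per TMM-CPM varied from 0.144 to 0.472 between livers, while Lgr5's stayed between 0.130 and 0.160.

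Wnt5a read 2.16, 3.94 and 2.50 TMM-CPM in fresh and 1.75, 1.56 and 1.01 in vitrified livers. Every vitrified liver lay below every fresh one, as 4.53% of all genes did, and the log2 difference was −0.96 ± 0.41 (SE, unadjusted p = 0.0461, adjusted p = 0.990 in edgeR). Wnt9b read 1.28, 1.08 and 1.13 in fresh and 1.97, 1.77 and 1.60 in vitrified livers. Here every vitrified liver lay above every fresh one, as 3.89% of all genes did, at 0.63 ± 0.37 (adjusted p = 0.990 in edgeR). Together 2 of the 7 tested genes did not overlap, beside 8.42% of all genes tested in either direction.

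Rspo3, Lgr5 and Wnt2b had smaller liver differences. Rspo3 read 7.03, 6.49 and 8.09 TMM-CPM in fresh and 5.97, 7.34 and 7.39 in vitrified livers, at −0.04 ± 0.26 (SE, adjusted p = 0.994 in edgeR). Lgr5 read 4.0, 4.63 and 4.69 in fresh livers and 5.90, 2.38 and 2.86 in vitrified ones, so that vitrified replicate 1 was the highest of the 6, at −0.24 ± 0.40 (adjusted p = 0.990 in edgeR). For Wnt2b the difference was 0.07 ± 0.51 (adjusted p = 0.994 in edgeR). These intervals are wide, and missing the threshold does not show that the origins were alike.

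**Figure D4:**
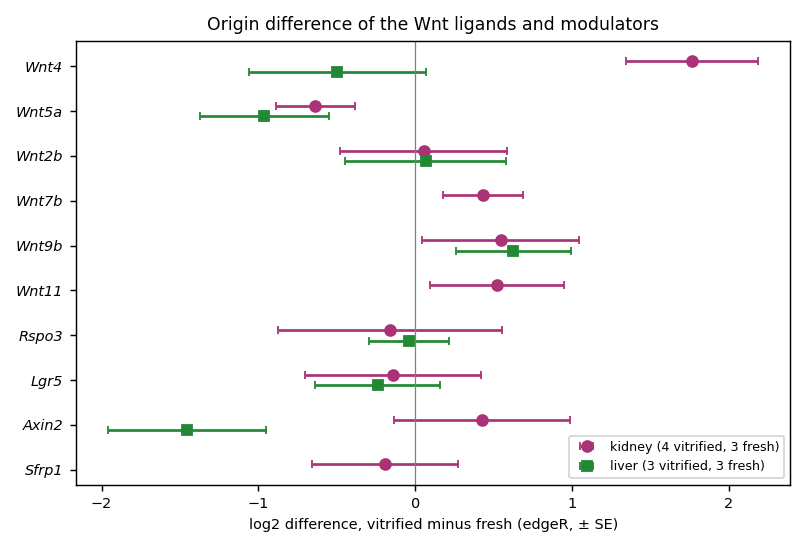
Log2 difference between vitrified and fresh origin for each gene in the kidney (circles) and the liver (squares), from edgeR with SE bars; Wnt7b, Wnt11 and Sfrp1 have no liver estimate. Kidney Wnt4 at 1.76 lies farthest to the right and liver Axin2 at −1.45 farthest to the left.

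The difference between the organs in the origin effect, which shares the kidney values that chose Wnt4, is also given without a test. It was 2.28 ± 0.72 (SE, log2) for Wnt4, whose kidney values were higher and liver mean lower with vitrified origin. For Axin2 it was 1.90 ± 0.80, and for Wnt5a, which was lower in vitrified libraries of both organs on average, 0.35 ± 0.45. Over all 14441 genes edgeR called 0 (0.0%), with 275 at an unadjusted p under 0.05, and DESeq2 and limma on log2(FPKM + 1) called 0 as well.

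The other genes of the pathway put the set in its setting. All counts of organ calls in the lists below stand beside 32.4% of all genes tested higher in the kidney and 30.3% higher in the liver with TMM. With library totals alone they stand beside 10065 and 1522 of 14441 genes, so most calls of any list go towards the kidney on that scale. Wls, which carries Wnt ligands to the cell surface, was at 177.4 ± 10.01 TMM-CPM in the kidney (SD, n = 7) and 7.88 ± 1.83 in the liver (n = 6), a log2 difference of 4.50 ± 0.17 (SE, edgeR adjusted p = 1.08e-10). Porcn, which attaches the lipid, did not pass at 0.36 ± 0.20 (adjusted p = 0.130), although with library totals alone both genes were called. Of the other 13 Wnt ligand genes, 3 had enough counts to test and 1 was called: Wnt2, a central vein ligand in the mouse, higher in the liver at −3.34 ± 0.35 (adjusted p = 1.72e-06). With library totals alone all 3 were called, Wnt5b (0.92, adjusted p = 0.0414) and Wnt9a (1.73, adjusted p = 0.00935) towards the kidney; with TMM these stood at −0.07 ± 0.35 and 0.74 ± 0.49. DESeq2, which tested 9, called 3 towards the kidney and 1 towards the liver.

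Of 15 Wnt inhibitors besides Sfrp1, a list that holds secreted antagonists and also the membrane-bound Dkk receptors Kremen1 and Kremen2, 10 were tested, and 7 were higher in the kidney and 2 in the liver (8 and 1 with library totals alone), with a median log2 difference of 3.23 against −0.004 for all genes. Kremen1 was 1 of the 7, at 0.50 ± 0.15 (SE, adjusted p = 0.0114 in edgeR). The secreted antagonists Sostdc1 (7.88 ± 0.40), Sfrp2 (6.55 ± 0.65) and Frzb (4.94 ± 0.49) were higher in the kidney. Notum, a Wnt-inactivating enzyme, was higher in the liver at −1.05 ± 0.20 (adjusted p = 0.000404 in edgeR), a call that was lost with library totals alone (−0.08). Dkk4 was at 0 in every kidney, and the liver was at least 50.3-fold higher (3 counts over the 7 kidneys).

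Of 16 receptors and co-receptors 14 were tested, with 9 higher in the kidney and 2 in the liver and a median log2 difference of 0.84, beside 32.4% and 30.3% of all genes. With library totals alone the counts were 11 and 0, on a scale where 10065 of 14441 genes were higher in the kidney. The most abundant were the co-receptor Lrp6, at 121.9 ± 30.6 TMM-CPM in the kidney (SD, n = 7) and 82.9 ± 13.4 in the liver (n = 6), and Fzd4, at 69.4 ± 12.9 and 48.6 ± 19.4; Lrp6 passed the test (edgeR adjusted p = 0.00575) and Fzd4 did not (adjusted p = 0.0857). Fzd2 (5.39 ± 0.65, SE) and Ror2 (4.99 ± 0.87), a receptor for Wnt5a, had the largest differences towards the kidney. Both were low: Fzd2 was at 1.77 ± 0.91 TMM-CPM in the kidney (SD) and 0.0361 in the liver. Ror2 was at 1.65 ± 1.89 and 0.0466, with a kidney SD above its mean. Fzd8 (−1.12 ± 0.21) and Lrp5 (−0.59 ± 0.18) were higher in the liver, and neither kept its call with library totals alone, where Lrp5 turned to 0.41. Beside Rspo3 and Lgr5, 3 more of the R-spondin axis were tested, with 1 called in each direction (2 towards the kidney and 1 towards the liver with library totals alone): Lgr4 was higher in the kidney at 0.56 ± 0.15 (adjusted p = 0.00539 in edgeR), Rnf43 higher in the liver at −2.0 ± 0.29 (adjusted p = 4.68e-05), and Znrf3 not called at −0.25 ± 0.19; with library totals alone Znrf3 turned to 0.74 (adjusted p = 0.00624).

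The intracellular components lay close to the median of all genes. Of 20 besides Axin2, all tested, 2 were higher in the kidney and 3 in the liver, with a median of 0.02; with library totals alone these were 16 and 1, and the median 1.02 lay near the shift of all genes. Ctnnb1, which encodes beta-catenin, was at 0.27 ± 0.12 (SE, adjusted p = 0.0771 in edgeR). Of the transcription factors, Tcf7 was higher in the liver (−1.95 ± 0.30) and Lef1 was higher in the kidney (1.68 ± 0.56).

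Of 14 canonical target genes besides Axin2 and Lgr5, 13 were tested, 6 were higher in each organ (7 in the kidney and 4 in the liver with library totals alone), and the median was −0.25. This list shares Notum, Rnf43, Znrf3, Tcf7 and Lef1 with the lists above, so their calls are counted again here. Ccnd1 (2.56 ± 0.58, SE) and Apcdd1 (4.34 ± 0.69) were higher in the kidney, and Tnfrsf19 (−2.81 ± 0.34) and Myc (−2.51 ± 0.46) in the liver. The livers spread widely for Ccnd1 (35.6 ± 56.1 TMM-CPM, SD) and Myc (19.7 ± 18.4), and Apcdd1 was at only 0.0994 there. Of 11 further pericentral liver genes, 10 were higher in the liver, with a median of −5.29, among them Cyp1a2 (−10.25 ± 0.70, SE) and Rgn (−8.59 ± 0.48); with library totals alone 6 were higher in the liver and 1 in the kidney. Glul, the glutamine synthetase gene of pericentral hepatocytes, was called at −1.08 ± 0.21, a call lost with library totals alone (−0.07). Other hepatocyte genes were also higher in the liver: 8 of 10 periportal genes, with a median of −9.74, and 5 of 5 hepatocyte markers, with a median of −10.12. Between origins none of these lists held a call in either organ. In the liver 9 of the 10 tested targets had a difference below 0, with a median of −0.47 against 0.009 for all genes, and none was called (smallest adjusted p = 0.990 in edgeR). This was not particular to the targets. Of the receptors and co-receptors 9 of 11 lay below 0 (median −0.35), and of the further pericentral genes 8 of 11 (median −0.15). Intracellular components besides Axin2 had 10 of 18 below 0 (median −0.02). The summed target level was 103.6, 99.5 and 241.6 TMM-CPM in fresh and 115.1, 66.4 and 113.0 in vitrified livers. Fresh replicate 3, the liver library near 0 in Y-linked counts, thus stood above the other 5. Ccnd1, whose SD over the livers exceeded its mean, is part of this sum, so the sum is not an even measure of the list. In the same comparison 5 of 5 cholangiocyte markers lay above 0 (median 1.33) and 8 of 9 fibroblast and stellate markers below 0 (median −0.35), with none called; summed, they ran from 35.2 to 63.0 and from 242.1 to 475.4 TMM-CPM in fresh livers and from 36.6 to 228.7 and from 177.0 to 467.0 in vitrified ones, and no marker of either list was at 0 in a whole group. Their part in the result was not tested.

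**Figure D5:**
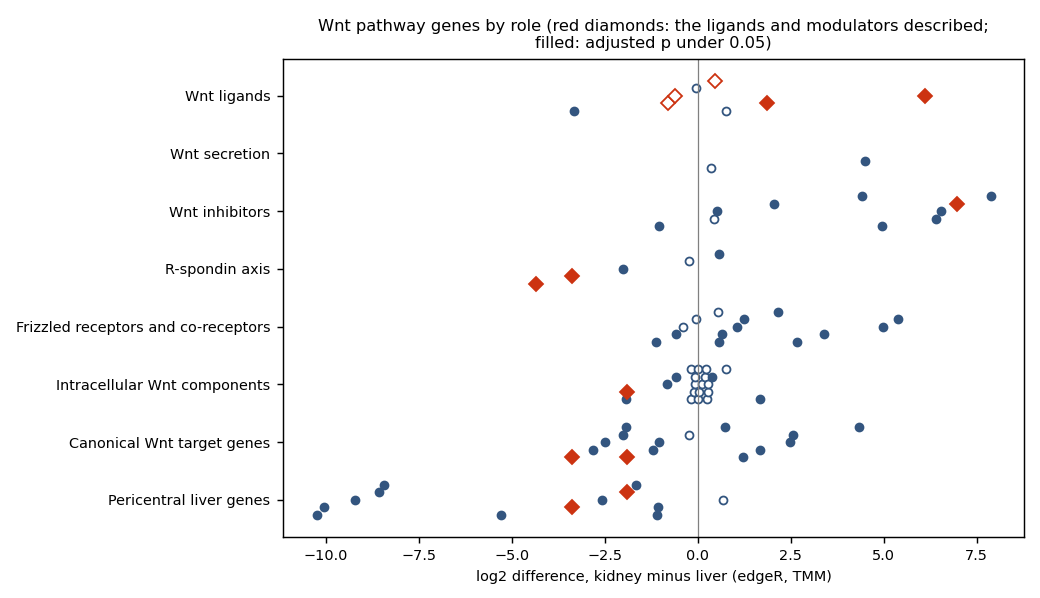
Log2 difference between kidney and liver for each tested Wnt pathway gene, in rows by role, from edgeR with TMM scaling; filled symbols have an adjusted p under 0.05, and genes with no count in one organ are left out. The Wnt inhibitors, Kremen1 included, spread to the kidney's side, with Sostdc1 at 7.88, the pericentral genes to the liver's side, with Cyp1a2 at −10.25, and the intracellular components cluster around 0.

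Several limits bear on single genes. The authors' counting is not stated to use strand, so reads of Wnt5a, Wnt7b, Wnt11, Rspo3 and Axin2 and of the antisense gene models that overlap their exons (Gm2670, AU022754, Gm8398, Gm48159 and Gm11670) cannot be told apart. Gene sequences shared with other loci were 0.647% of 50-base words for Lgr5, 0.255% for Sfrp1 and 0.0128% for Wnt5a, in the GENCODE annotation of build GRCm38.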

How the data were processed

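Total RNA of liver and kidney was sequenced after ribosomal RNA removal, mRNA isolation and fragmentation, per the labels' protocols. The authors deposited estimated counts and FPKM per gene. The submitters' processing notes name Bowtie2 2.2.8, HISAT2 2.4, StringTie 1.3.1, DESeq2 and genome build GRCm39; which annotation, counter and strand setting made the table was not given in the sources used here.

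Estimated counts were rounded to whole numbers and fitted with edgeR 4.0.16 (R 4.3.3; TMM scaling, filterByExpr, robust quasi-likelihood test). Calls needed a Benjamini-Hochberg adjusted p under 0.05 over all genes tested. The comparisons were vitrified against fresh within each organ, kidney against liver with both origins weighted equally, and the organ difference of the origin effect. Alternatives were DESeq2 1.42.0, limma 3.58.1 on log2(FPKM + 1) and log2(FPKM + 0.1), other filters and scalings, a replicate block and libraries left out; library totals alone was added after seeing the data. The scripts were tested on simulated data. The members and lists were chosen with earlier results of these data known. Genes of each wider list were named from those with the highest mean level in each organ and the called ones with the largest organ differences, 2 of each; exceptions are said to be chosen after their values were seen.

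Same-numbered libraries deviated in both directions across origins. Across organs all 6 same-numbered pairs of one origin correlated positively, 1 of them below the limit of 0.1 set for pairing, so the main organ test has no block; the alternative blocks on origin and number together. Library totals of 16073251 to 19964914 limit the precision of genes with few counts.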

Additional observations from a re-analysis of the deposited data

Results flagged for a closer look

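Kidney vitrified replicate 4 was far from the other 3 vitrified kidneys in 5 quantities. Sfrp1 was at 114.8 TMM-scaled CPM there, and the next highest library of the group was at 50.0. Summed collecting duct principal cell markers were at 584.6 against 357.4 in the next library, and summed thick limb and distal tubule markers at 6497 against 4305. Summed podocyte markers were at 617.5 against 258.6, and summed cholangiocyte markers, a list that kidney epithelium also expresses, at 879.9 against 408.7. Of 10 genes 1 met this criterion and of 10 marker lists 4; chance alone flags about 1 in 20 groups, and lists read in one library are not independent. The library was also near 0 in Y-linked counts, as was kidney fresh replicate 3, which had the highest Sfrp1 level of the fresh kidneys. The part of these features in the Sfrp1 value was not tested.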

How the results depend on the processing

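Between kidney origins, the 0 calls of the main test became 11 with DESeq2, 2 with the newer quasi-likelihood method, 2 with no filter on low counts and 3 with limma on log2(FPKM + 0.1), and leaving out each library in turn gave 0 to 3, with 3 without kidney fresh replicate 1. Between liver origins, DESeq2 gave 9 calls and leaving out each library in turn gave 0 to 1, with 1 without liver fresh replicate 1. With the replicate block the counts were 0, 0 and 0 for the origin comparisons and their organ difference and 9089 for the organs, against 9051, with fresh and vitrified libraries of one number in separate blocks for the organs; 7 members were called there too. Same-numbered libraries correlated between −0.456 and 0.409 across kidney origins, and so few pairs cannot show whether they share more than a number. Across organs the fresh pairs correlated at 0.192 to 0.195, each best with its own number, and the vitrified pairs at 0.0483 to 0.345. Whether the organ pairs come from one animal is not given. The number of members called between organs was 7 under every alternative except without liver vitrified replicate 3 (8), but with library totals alone and on both FPKM scales Axin2 left the called genes and Wnt9b joined them. The organ difference of Wnt4 turned to 0.35 with library totals alone, 0.10 on log2(FPKM + 1) and 0.32 on log2(FPKM + 0.1), and that of Wnt2b to 0.17, 0.0259 and 0.10. In the liver, the Rspo3 difference was 0.0413 without fresh replicate 3, whose Y-linked level was near 0, and leaving out each library gave −0.11 to 0.0462 for Rspo3, −0.26 to 0.30 for Wnt2b and −0.75 to 0.00243 for Lgr5. The cause was not tested. Genes with few counts, such as Wnt4, Wnt2b and Rspo3 in the kidney, are limited by depth.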

Other observations

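Wnt2, which was chosen here after its values were seen, read 0.506 to 0.650 TMM-scaled CPM in the 3 fresh kidneys and 0.0408 to 0.253 in the 4 vitrified ones, without overlap, as 1.98% of all genes tested lay lower in every vitrified kidney. Its log2 difference was −1.93 ± 0.58 (SE), given without a test. In the liver the target Sp5 and Tbx3, a gene of the pericentral list, were chosen in the same way. They read 1.67 ± 1.02 and 24.8 ± 10.97 TMM-scaled CPM in fresh livers (SD, n = 3) and 0.545 ± 0.359 and 7.51 ± 5.02 in vitrified ones (n = 3), and neither passed the edgeR test (adjusted p = 0.990 for both).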
